A study of Mus musculus with 16 samples.

Results

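Genes that interferons induce were followed in the dorsal hippocampus of mice that drank water or caffeine and were either left at rest or trained in a spatial task. They are 4 guanylate-binding proteins (Gbp2, Gbp3, Gbp4 and Gbp7), the immunity-related GTPase Irgm1, the transcription factor Irf1, the tetratricopeptide repeat proteins Ifit1 and Ifit3, and the membrane protein Bst2. The 9 genes were chosen from a table of 35328 genes by symbol, and the choice was made with results of these data in view, because Gbp4 was lower after learning than in the home cage. All 9 were in the table and all 9 passed the filter on low counts. RNA-Seq was done on 16 C57Bl6/J mice in 4 groups of 4. The HC_water and HC_Caffeine groups rested in the home cage, and the MWM_water and MWM_Caffeine groups had been trained for 3 days in the Morris water maze and were taken 1 hour later; in this task mice learn to find a hidden platform in a pool. Caffeine was given in the drinking water at 0.3 g/L for 2 weeks from 8 to 9 weeks of age, and the water groups drank water alone. No group carried a transgene or a deletion. The home cage mice did not swim, so learning, exercise and handling cannot be told apart in these comparisons.

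Interferons are secreted proteins that cells release when they detect foreign nucleic acid or when lymphocytes are activated. Type I interferons and interferon gamma bind separate receptors, which act through Janus kinases (JAK) on STAT transcription factors. STAT complexes then bind short DNA elements near the start of responsive genes, the interferon-stimulated response element (ISRE) for type I interferon and the gamma-activated site (GAS) for interferon gamma. Guanylate-binding proteins and immunity-related GTPases act on membranes around intracellular pathogens, the Ifit proteins bind viral RNA or partner with those that do, and Bst2, also called tetherin, holds budding enveloped virus at the cell surface. In the resting brain these genes are known to be expressed at low levels, with microglia and endothelial cells among the responding cells.

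The genes lie in few places of the genome (GRCm38/mm10, GENCODE M21). Gbp7 (ENSMUSG00000040253, chr3:142530342-142550149), Gbp3 (ENSMUSG00000028268, chr3:142560026-142573209) and Gbp2 (ENSMUSG00000028270, chr3:142620602-142638008) lie close together on the plus strand of chromosome 3. Gbp4 (ENSMUSG00000079363, chr5:105115767-105139586, minus strand) belongs to the second guanylate-binding protein cluster, on chromosome 5, where its exons overlap those of Gbp8 by 61 bases and those of Gbp9 by 60 bases on the same strand. Irgm1 (ENSMUSG00000046879, chr11:48861968-48871683, minus strand) and Irf1 (ENSMUSG00000018899, chr11:53770014-53778374) share chromosome 11. Ifit3 (ENSMUSG00000074896, chr19:34583531-34588731) and Ifit1 (ENSMUSG00000034459, chr19:34640871-34650009) share chromosome 19, and Bst2 (ENSMUSG00000046718, chr8:71534255-71537456, minus strand) stands alone on chromosome 8.

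The response elements that name the family were looked for in the RefSeq promoter windows of these genes, 250 bases before to 50 bases after each start (GRCm38.p6). The 8 genes other than Gbp4 were matched by symbol to 10 windows. For the ISRE the letters searched were GAAA, any 2 bases, then GAAA, on either strand, and they were found in 7 of the 8 genes, against 3.99% of the 27025 genes with a window (3.44% of 32851 windows). For the GAS they were TTC, any 3 bases, then GAA, which reads the same on both strands, and they were found in 3 of the 8 genes (Gbp7, Bst2 and Irf1), against 9.55% of genes (8.3% of windows). The choice of genes did not read these sequences, but the genes were listed as interferon-induced, a class that responds through such elements. The counts are therefore a description of the listed genes and no test. Shown is 1 match per gene, the ISRE furthest from the start or, for Irf1, which had no ISRE match, its GAS. A second, separate ISRE match of Ifit1 and of Ifit3 and the GAS matches of Gbp7 and Bst2 are not shown. Each line is written 5′ to 3′ along the gene, with 10 bases on either side in lower case and the matching letters in capitals, overlapping matches included; a run that reads TTTC in place of GAAA is the same element on the other strand.
Gbp7, ISRE, chr3:142530273-142530302 (plus strand): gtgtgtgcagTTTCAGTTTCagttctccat
Gbp3, ISRE, chr3:142559989-142560024 (plus strand): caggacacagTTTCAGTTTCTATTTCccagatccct
Gbp2, ISRE, chr3:142620594-142620623 (plus strand): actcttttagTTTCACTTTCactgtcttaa
Ifit3, ISRE, chr19:34583363-34583392 (plus strand): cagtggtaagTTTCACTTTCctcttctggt
Ifit1, ISRE, chr19:34640775-34640804 (plus strand): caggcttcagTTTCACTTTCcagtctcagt
Bst2, ISRE, chr8:71537577-71537612 (minus strand): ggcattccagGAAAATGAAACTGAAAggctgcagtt
Irgm1, ISRE, chr11:48871425-48871460 (minus strand): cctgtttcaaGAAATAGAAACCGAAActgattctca
Irf1, GAS, chr11:53769914-53769942 (plus strand): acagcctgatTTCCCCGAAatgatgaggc

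The match shown began 53 bases before the RefSeq start in Gbp7, 45 in Gbp3, 59 in Gbp2, 156 in Ifit3, 104 in Ifit1, 130 in Bst2, 30 in Irgm1 and 90 in Irf1. In Gbp2, Ifit1 and Ifit3 the ISRE match shown had the same letters, TTTCACTTTC. The GAS match of Bst2 overlapped its ISRE match. The Gbp2 window reached into the longest first exon of the GENCODE annotation, and the Irgm1 window lay inside an exon of 1 GENCODE transcript of that gene. A match is a run of letters and not a measured binding site.

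Between 23078094 and 49949281 reads were counted per mouse, with a median of 30203502.5 in HC_water, 34736321.5 in HC_Caffeine, 37367856.5 in MWM_water and 42497897.5 in MWM_Caffeine mice. The medians were higher in the learning groups, while single libraries overlapped. Levels are given as CPM, the counts per 1000000 counts of the library total after scaling by edgeR's TMM method, and a gene is called where edgeR's quasi-likelihood test over 17830 genes gave a Benjamini-Hochberg adjusted p under 0.1. Fos, an immediate early gene that neuronal activity induces, checked the labels: it was at 2.5 ± 0.74 CPM in HC_water and 13.3 ± 2.1 CPM in MWM_water mice (SD, n = 4; log2 fold change 2.39, edgeR adjusted p = 9.21e-06), and at 4.74 ± 1.19 and 14.2 ± 2.7 CPM under caffeine (1.57, edgeR adjusted p = 5.07e-04). Markers of hippocampal neurons summed to between 3142 and 3815 CPM in every library. The labels do not say more of how the mice of a group relate. The p-values of edgeR set a difference against the spread between mice within groups, estimated in 1 model over all 16 libraries.

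All 9 genes were measured at low levels. Per library, Gbp4 had 55 to 155 reads, Ifit1 had 44 to 95, and the best covered members, Irgm1 and Irf1, had 203 to 447 and 174 to 423. Levels between genes were compared as CPM per kilobase of exon, over all 16 mice. Bst2 was the highest at 4.23 ± 0.75 (SD, n = 16) and above the next gene in all 16 mice. Irf1 at 2.30 ± 0.22 and Ifit3 at 2.22 ± 0.43 followed and did not differ beyond their spread, with Irf1 the higher in 8 of 16 mice. Irgm1 was at 1.63 ± 0.18, below Ifit3 in 15 of 16 mice. Gbp2 at 1.32 ± 0.25 and Gbp3 at 1.25 ± 0.16 were not separated either, with Gbp2 the higher in 9 of 16 mice. Gbp7 at 0.858 ± 0.137 was below Gbp3 in all 16 mice, Ifit1 at 0.673 ± 0.078 was below Gbp7 in 14 and Gbp4 at 0.373 ± 0.146 was below Ifit1 in all 16. Gbp4, the gene for which the list was drawn up, was thus the lowest per length.

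**Figure D1:**
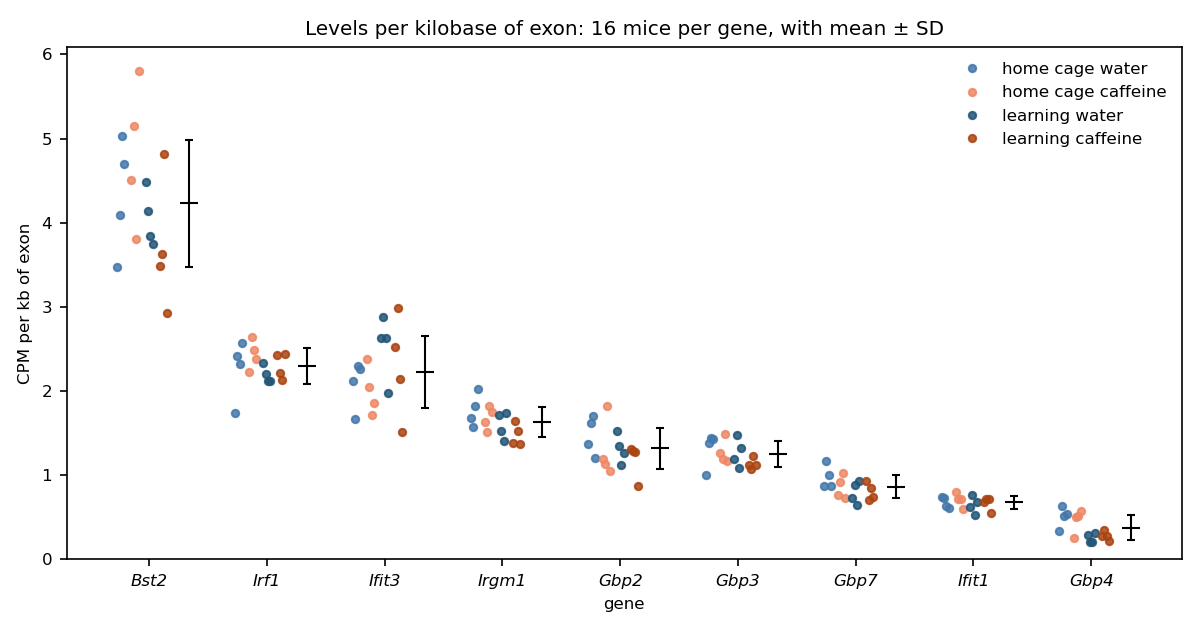
Level of each of the 9 genes in CPM per kilobase of exon (vertical axis, linear), 1 point per mouse coloured by group, with the mean and SD over 16 mice as black bars. Bst2 stands highest at 4.23 and Gbp4 lowest at 0.373, and Irf1 with Ifit3, and Gbp2 with Gbp3, overlap.

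Some of these values are touched by sequence shared with related genes. Reads were 50 bases long and only those aligned to a single place were kept, so reads from stretches that occur at separate places were dropped. The share of a gene's transcript 50-mers that also occur in transcripts of another gene was 51.2% for Ifit3 (all with Ifit3b), 12.7% for Gbp7 (mainly the pseudogene Gm43802, whose exon it also overlaps by 637 bases), 7.78% for Gbp4 (mainly Gbp11 and Gbp6), 7.13% for Ifit1 (mainly Ifit1bl2) and under 4% for the other 5. The level of Ifit3 per length is therefore uncertain and likely too low, and its place beside Irf1 is uncertain too. For Gbp7, 588 of the 715 shared 50-mers were with Gm43802, which is annotated on the same bases and was not in the table. A read from bases that are annotated under both names still aligns to a single place. The libraries kept the strand of the RNA, but whether counting used it is not given in the sources used here, which touches Irf1, whose exons overlap Gm17334 on the opposite strand by 135 bases, and Gbp2, which overlaps Mir6381 by 24.

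Gbp4, the GTPase of the chromosome 5 cluster, was at 2.54, 4.72, 3.82 and 3.98 CPM in HC_water replicates 6, 8, 11 and 20. It was at 2.17, 1.54, 1.53 and 2.28 CPM in MWM_water replicates 24, 33, 36 and 38. Every MWM_water mouse was thus below every HC_water mouse, with replicate 6 the nearest of the home cage mice. The means were 3.76 ± 0.90 and 1.88 ± 0.40 CPM (SD, n = 4), a log2 fold change of -1.01 (SE 0.25). The genes were chosen because Gbp4 fell with learning, so these values are a description and carry no test. The other 8 genes overlapped between the 2 groups, and over all genes tested 3.12% had every MWM_water mouse below every HC_water mouse.

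Under caffeine Gbp4 was at 1.87, 3.79, 3.83 and 4.32 CPM in HC_Caffeine replicates 2, 9, 14 and 17. It was at 2.08, 2.61, 2.05 and 1.58 CPM in MWM_Caffeine replicates 22, 27, 30 and 40. Here the groups overlapped, because HC_Caffeine replicate 2 lay below 3 of the 4 MWM_Caffeine mice, while the other 3 home cage mice lay above all of them. The means were 3.45 ± 1.09 and 2.08 ± 0.42 CPM (SD, n = 4) and the log2 fold change was -0.72 (SE 0.24), or -0.92 (SE 0.20) without HC_Caffeine replicate 2. The rule speaks of learning without naming the treatment, so no test is given for Gbp4 here either. The difference between its 2 learning responses was 0.29 (SE 0.34) on the log2 scale, which is smaller than its standard error.

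**Figure D2:**
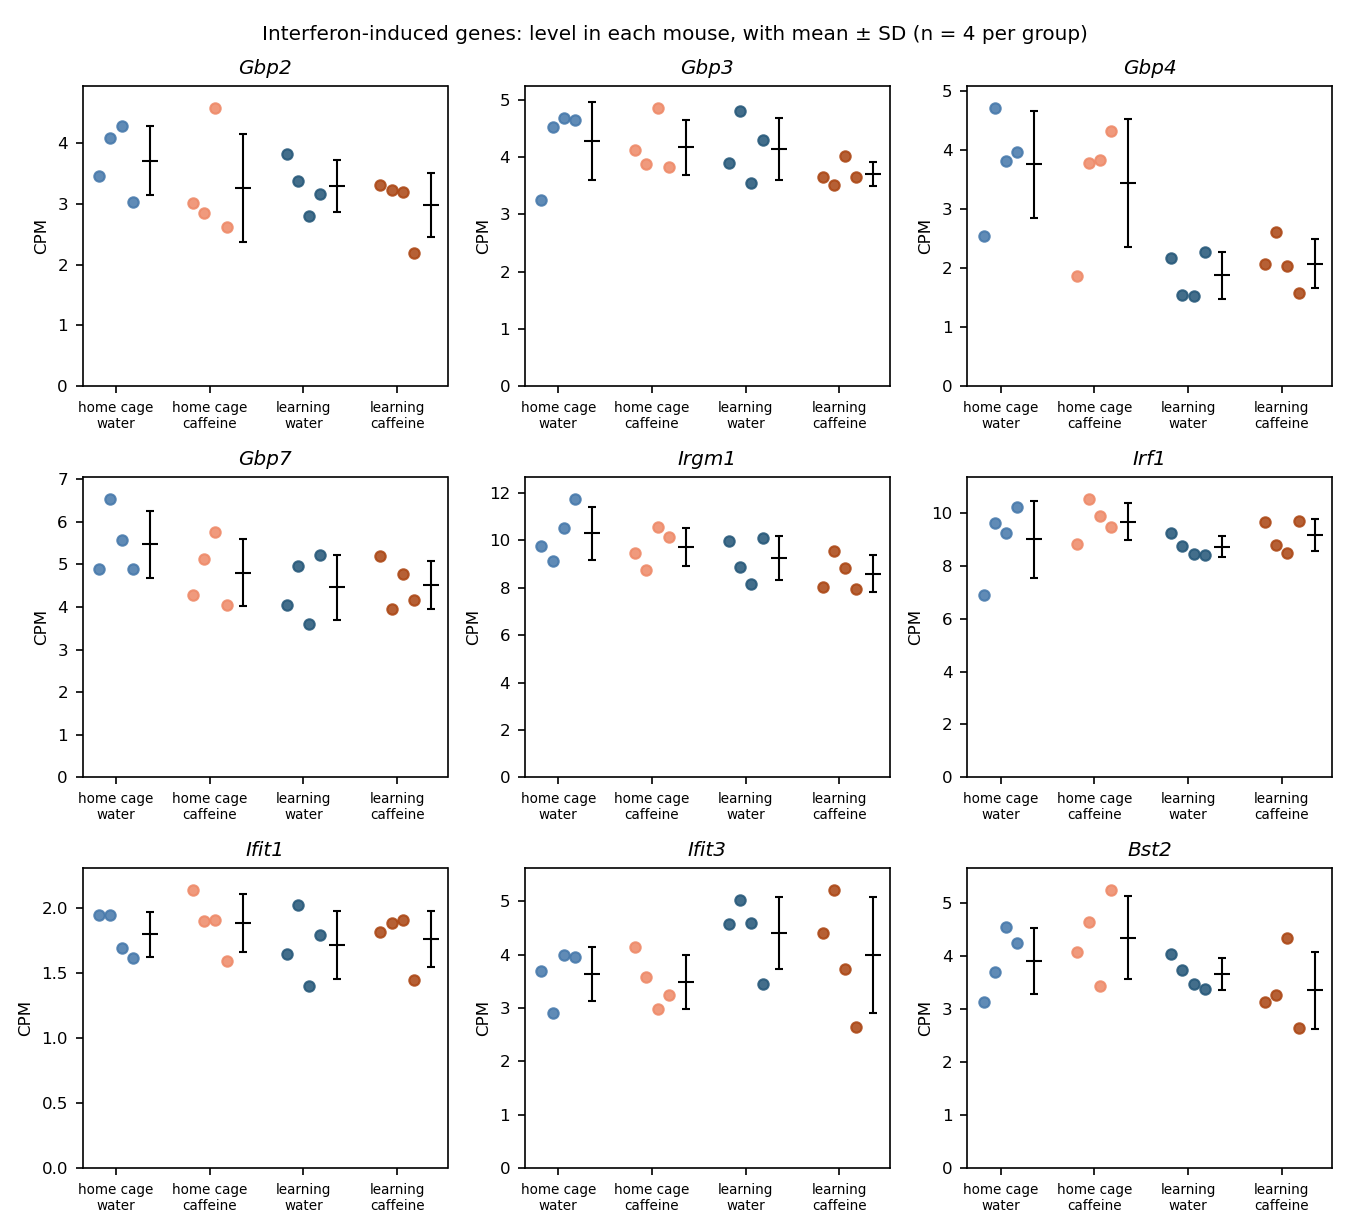
Level in CPM (vertical axis, from 0) of each of the 9 genes in each of the 16 mice, by group, with the mean and SD of the 4 mice beside the points. Gbp4 is the only panel in which the MWM_water points (1.53 to 2.28) all lie under the HC_water points (2.54 to 4.72); HC_Caffeine replicate 2 at 1.87 is the low point of its group.

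Markers of other cell types are set beside Gbp4, since in bulk tissue fewer cells of a type and less RNA per cell cannot be told apart. Of 9 choroid plexus markers, all 9 were below 0 in the log2 fold change of learning under water and 4 were called lower (Ttr, Folr1, Aqp1 and Kcnj13), where edgeR called 0.331% of all genes lower. Under caffeine 8 of the 9 were below 0 and none was called. In caffeine against water at rest all 9 were below 0, with a median of -1.58, where learning under water gave -1.38. None was called there, and all 9 had an unadjusted p under 0.05, where 3.57% of all genes had. Gbp4 differed by -0.14 (SE 0.24) in that comparison. The summed level of the choroid plexus markers was 309 to 2364 CPM in HC_water, 195 to 509 in HC_Caffeine, 167 to 438 in MWM_water and 119 to 207 in MWM_Caffeine mice, and no marker was at 0 in all libraries. The home cage mouse lowest in Gbp4 was also the lowest in these markers in both home cage groups, replicate 6 at 309 CPM and replicate 2 at 195 CPM. In the learning groups this held in MWM_Caffeine (replicate 40 at 119 CPM) and not in MWM_water. The mouse highest in Gbp4 was the highest in these markers only in MWM_water (replicate 38 at 438 CPM). In the other groups it was HC_water replicate 8 at 1164 CPM, HC_Caffeine replicate 17 at 233 CPM and MWM_Caffeine replicate 27 at 140 CPM. HC_water replicate 6 and HC_Caffeine replicate 2 were also the lowest of their groups in the summed level of 6 meningeal fibroblast markers, at 83.5 and 61.5 CPM. Of those 6 markers, 4 were below 0 with learning under water and 6 under caffeine, and none was called. Of 10 microglia markers, 8 were below 0 under water with no call, and under caffeine 6 were called lower, among them Cx3cr1, Aif1 and C1qa, where 2.13% of all genes were. Their summed level was 466 to 527 CPM in HC_water, 500 to 542 in HC_Caffeine, 461 to 497 in MWM_water and 437 to 500 in MWM_Caffeine mice, a far narrower range than that of Gbp4. Both home cage mice lowest in Gbp4 were the highest of their group in microglia markers, at 527 and 542 CPM. In each learning group, by contrast, the mice had the same order in Gbp4 and in these markers. MWM_water replicate 38 at 497 CPM and MWM_Caffeine replicate 27 at 500 CPM were the highest of their groups in both. MWM_water replicate 36 at 461 CPM and MWM_Caffeine replicate 40 at 437 CPM were the lowest in both. Of 8 oligodendrocyte markers, all 8 were below 0 under caffeine with a median of -0.41, and Opalin was called lower; under water 1 of 8 was below 0. Their summed level was 5245 to 7505 CPM in HC_water, 5317 to 9030 in HC_Caffeine, 5157 to 12020 in MWM_water and 5017 to 7023 in MWM_Caffeine mice. Of 8 astrocyte markers, Gjb6 was called higher and Gfap lower under caffeine, and none under water. Of 10 endothelial markers, all 10 were below 0 under water, with a median of -0.14, and 8 under caffeine, and none was called. They summed to 235 to 246, 207 to 274, 203 to 228 and 209 to 259 CPM in the same order of groups. Every MWM_water mouse was thus below every HC_water mouse in this sum. Of 8 pericyte and smooth muscle markers 6 were below 0 in each treatment. Of 6 perivascular macrophage markers 3 were below 0 under water and 4 under caffeine, and none of either list was called. None of the 8 lymphocyte markers passed the count filter, and they summed to at most 0.930 CPM in any library. The part of any of these cell types in the Gbp4 result was not tested.

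**Figure D3:**
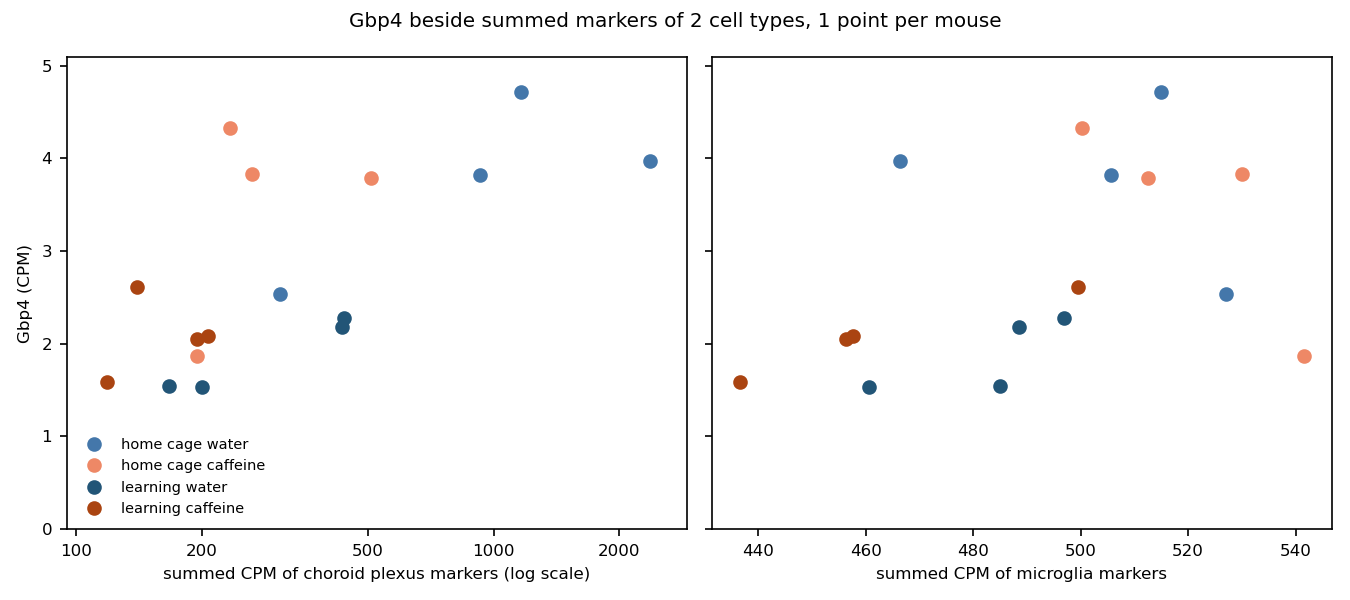
Gbp4 level in CPM (vertical axis) against the summed CPM of 9 choroid plexus markers (left, log scale) and of 10 microglia markers (right, linear scale), 1 point per mouse coloured by group. The choroid plexus sums run from 119 to 2364 CPM and the microglia sums from 437 to 542 CPM. The 2 home cage mice with Gbp4 at 1.87 and 2.54 CPM have the lowest choroid plexus sum and the highest microglia sum of their groups. In each learning group the mouse highest in Gbp4 has the highest microglia sum, and the mouse lowest in Gbp4 the lowest. Outside MWM_water the mouse highest in Gbp4 does not have the highest choroid plexus sum of its group.

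The other 3 guanylate-binding proteins, which form the chromosome 3 cluster, moved little. Gbp7 was at 4.88, 6.53, 5.58 and 4.89 CPM in HC_water replicates 6, 8, 11 and 20, and at 4.05, 4.97, 3.60 and 5.21 CPM in MWM_water replicates 24, 33, 36 and 38. Of the learning mice 2 lay below and 2 within the home cage range, and the log2 fold change was -0.30 (SE 0.15), the second lowest of the 9. Under caffeine Gbp7 was at 4.29, 5.13, 5.76 and 4.05 CPM at rest and at 5.20, 3.96, 4.78 and 4.17 CPM after learning, with a log2 fold change of -0.08 (SE 0.15, edgeR adjusted p = 0.797). The groups overlapped almost wholly there.

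Gbp2 was at 3.45, 4.08, 4.27 and 3.04 CPM in HC_water and at 3.82, 3.37, 2.80 and 3.16 CPM in MWM_water mice. Under caffeine it was at 3.01, 2.84, 4.57 and 2.62 CPM at rest and at 3.30, 3.23, 3.19 and 2.18 CPM after learning. HC_Caffeine replicate 14 was the high value and MWM_Caffeine replicate 40 the low one, with all other mice between 2.62 and 4.27. Its log2 fold changes with learning were -0.17 (SE 0.18) under water and -0.13 (SE 0.18, edgeR adjusted p = 0.732) under caffeine, and the second turned to 0.085 without HC_Caffeine replicate 14. Gbp3 was at 3.255, 4.52, 4.69 and 4.65 CPM in HC_water and at 3.89, 4.80, 3.55 and 4.30 CPM in MWM_water mice. It was at 4.12, 3.88, 4.85 and 3.82 CPM in HC_Caffeine and at 3.65, 3.51, 4.01 and 3.66 CPM in MWM_Caffeine mice. HC_water replicate 6 stood alone below its group, and the log2 fold changes with learning were -0.06 (SE 0.13) under water and -0.17 (SE 0.13, edgeR adjusted p = 0.501) under caffeine.

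Irgm1, which regulates the other immunity-related GTPases, was at 9.76, 9.14, 10.5 and 11.7 CPM in HC_water and at 9.96, 8.88, 8.14 and 10.1 CPM in MWM_water mice. Under caffeine it was at 9.48, 8.75, 10.6 and 10.2 CPM at rest and at 8.05, 9.57, 8.85 and 7.94 CPM after learning. In each treatment 2 of the 4 learning mice lay below the home cage range. The log2 fold changes were close to each other, at -0.15 (SE 0.10) under water and -0.18 (SE 0.10, edgeR adjusted p = 0.337) under caffeine. Irf1, which interferon gamma induces and which in turn activates many of these genes, was at 6.91, 9.62, 9.23 and 10.2 CPM in HC_water and at 9.25, 8.76, 8.43 and 8.40 CPM in MWM_water mice. It was at 8.82, 10.5, 9.88 and 9.46 CPM in HC_Caffeine and at 9.65, 8.78, 8.49 and 9.69 CPM in MWM_Caffeine mice. Outside HC_water replicate 6, all 15 mice lay between 8.40 and 10.5 CPM. The log2 fold changes with learning were -0.05 (SE 0.10) under water and -0.08 (SE 0.10, edgeR adjusted p = 0.714) under caffeine.

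Among the antiviral effectors, Ifit3 was the 1 member of 9 above 0 in both learning comparisons. It was at 3.69, 2.90, 4.00 and 3.95 CPM in HC_water and at 4.58, 5.03, 4.59 and 3.45 CPM in MWM_water mice. Of the 4 learning mice 3 lay above the whole home cage group. Under caffeine Ifit3 was at 4.15, 3.58, 2.98 and 3.24 CPM at rest and at 4.40, 5.20, 3.73 and 2.65 CPM after learning, where the lowest and the highest values of the treatment were both learning mice. The log2 fold changes were 0.28 (SE 0.18) under water and 0.20 (SE 0.18, edgeR adjusted p = 0.573) under caffeine. Its near-identical neighbour Ifit3b had log2 fold changes of 0.03 and -0.01. Ifit1, the least counted member, was between 1.40 and 2.13 CPM in all 16 mice, with group means of 1.80 ± 0.17 in HC_water, 1.88 ± 0.22 in HC_Caffeine, 1.72 ± 0.26 in MWM_water and 1.76 ± 0.21 in MWM_Caffeine (SD, n = 4). The log2 fold changes with learning were -0.07 (SE 0.15) and -0.09 (SE 0.15, edgeR adjusted p = 0.780).

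Bst2 had the second largest response to learning under caffeine. It was at 4.07, 4.65, 3.43 and 5.25 CPM in HC_Caffeine replicates 2, 9, 14 and 17 and at 3.15, 3.28, 4.35 and 2.65 CPM in MWM_Caffeine replicates 22, 27, 30 and 40. Of the 4 learning mice 3 lay below the home cage group and replicate 30 lay inside it. The log2 fold change was -0.36 (SE 0.16), which did not pass the test (edgeR adjusted p = 0.231, exact two-sided permutation p = 0.114, where 0.0286 is the smallest p that 4 against 4 allows). Under water Bst2 was at 3.14, 3.70, 4.55 and 4.24 CPM at rest and at 4.05, 3.74, 3.47 and 3.39 CPM after learning, a log2 fold change of -0.09 (SE 0.16).

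**Figure D4:**
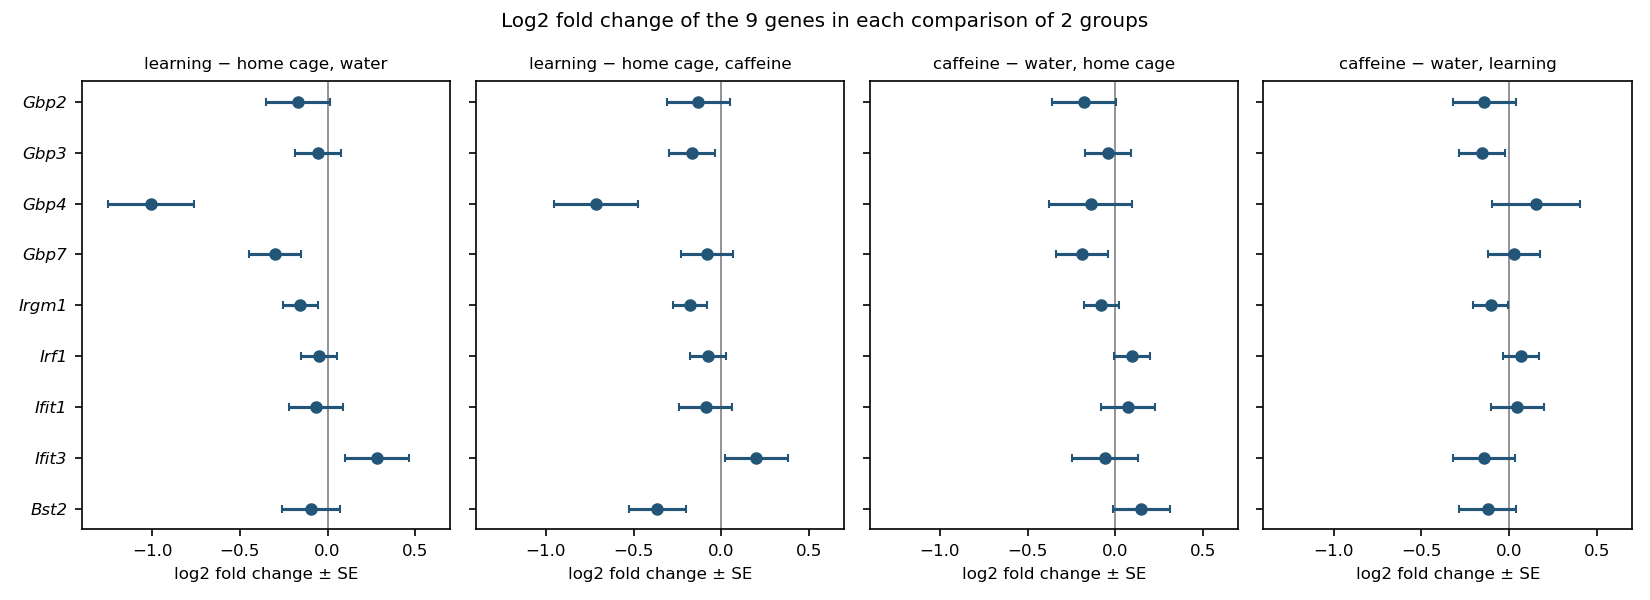
Log2 fold change with its standard error (horizontal axis) of each of the 9 genes in the 4 comparisons of 2 groups, with a grey line at 0. Gbp4 is at -1.01 and -0.72 with learning and at -0.14 and 0.15 with caffeine; every other gene lies between -0.36 and 0.28 in all 4 panels.

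Counted together, 8 of the 9 genes were below 0 with learning in each treatment, where 51.5% of all genes were below 0 under water and 52.9% under caffeine. The median of the 9 was -0.09 under water and -0.13 under caffeine, against -0.0055 and -0.012 over all genes. Gbp4 was among those below 0 in each treatment, and its fall with learning was the reason for the choice. The counts and medians of the 9 are therefore a description. The 9 genes were not picked at random and their values are not independent of each other. In learning under caffeine none of the 8 tested genes was called by edgeR, where 5.28% of all genes were called, and Bst2 was the 1 gene of the 8 with an unadjusted p under 0.05. No member had 2 groups without overlap there, against 10.9% of all genes. DESeq2's Wald test called none of the 8 either.

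Caffeine against water gave no call among the 9 genes at rest or after learning, and edgeR called 0.0% of all 17830 genes in each. At rest 636 genes (3.57%) and after learning 700 genes (3.93%) had an unadjusted p under 0.05, and no member was among them. DESeq2's Wald test called 2 genes higher and 17 lower at rest and 1 higher and 6 lower after learning, none of them a member. In the home cage the log2 fold changes ran from -0.19 for Gbp7 (SE 0.15, edgeR adjusted p = 0.997) to 0.15 for Bst2 (SE 0.16, edgeR adjusted p = 0.997), with 6 of 9 below 0 where 51.3% of all genes were. After learning they ran from -0.15 for Gbp3 (SE 0.13, edgeR adjusted p = 0.999) to 0.15 for Gbp4 (SE 0.25, edgeR adjusted p = 0.999), with 5 of 9 below 0 where 51.9% of all genes were. Gbp4 differed by -0.14 (SE 0.24, edgeR adjusted p = 0.997) at rest, and by 0.077 without HC_Caffeine replicate 2. Both caffeine comparisons share mice with the learning comparisons, and the fall of Gbp4 with learning chose the genes, which bears on Gbp4 most. All groups overlapped in all 9 genes, where 1.99% of genes at rest and 2.6% after learning did not.

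The other members stayed within the same bounds. At rest Gbp2 differed by -0.18 (SE 0.18), Irgm1 by -0.08 (SE 0.10), Ifit3 by -0.06 (SE 0.19), Gbp3 by -0.04 (SE 0.13), Ifit1 by 0.07 (SE 0.15) and Irf1 by 0.10 (SE 0.10) on the log2 scale. After learning Ifit3 and Gbp2 both differed by -0.14 (SE 0.18), Bst2 by -0.12 (SE 0.16), Irgm1 by -0.10 (SE 0.10), Gbp7 by 0.03 (SE 0.15), Ifit1 by 0.05 (SE 0.15) and Irf1 by 0.07 (SE 0.10). Averaged over rest and learning, caffeine moved the 9 genes by between -0.16 (Gbp2, SE 0.13) and 0.08 (Irf1, SE 0.07), and none was called among 0.0% of all genes (725, or 4.07%, with an unadjusted p under 0.05). The difference between the learning responses ran from -0.27 (Bst2, SE 0.23) to 0.29 (Gbp4, SE 0.34), with no call among the 8 tested genes and 0.0% over all genes (648, or 3.63%, with an unadjusted p under 0.05). With 4 mice a group, the standard errors were 0.10 to 0.25 for caffeine at rest and after learning. They reached 0.34 for the difference between the learning responses, and differences larger than these standard errors are not excluded.

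The spread between mice differed among the members. For Gbp4 the SD was 24% of the mean in HC_water and 31.4% in HC_Caffeine mice, where counting alone gives 9.22% and 9.38%, so the mice differed beyond counting error. Gbp2 in HC_Caffeine (27.2%, counting 9.48%) and Ifit3 in MWM_Caffeine (27.1%, counting 7.61%) were as variable. By contrast Gbp3 in MWM_Caffeine (5.77%, counting 7.94%), Irf1 in MWM_water (4.53%, counting 5.55%) and Ifit1 in HC_water (9.61%, counting 13.5%) varied no more than counting gives. MWM_water replicate 36 was the lowest of its group in 6 of the 9 genes and MWM_Caffeine replicate 40 likewise in 6, HC_water replicate 6 in 5 and HC_Caffeine replicate 17 in 4. HC_water replicate 11 and HC_Caffeine replicate 14 were the highest of their groups in 4 genes each. After removal of the group means, 26 of the 36 pairs of members had a Pearson correlation above 0 over the 16 libraries, with a median of 0.25. The pairs Gbp7 with Gbp3 (0.63) and Gbp7 with Gbp2 (0.58), all of the chromosome 3 cluster, were the highest and Ifit1 with Irf1 (-0.34) the lowest; the points share a library and its depth.

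The genes whose levels ran most like those of Gbp4 were ranked by the Pearson correlation of log2 CPM over the 16 libraries among the 13378 tested genes whose log2 CPM averaged 1 or more. Among the 5 highest were H2-Q4 (0.89), an MHC class I gene, Loxl3 (0.89), Zfp867 (0.86) and Gm26660 (0.85). H2-Q4 was at 2.78, 4.14, 2.83 and 2.85 CPM in HC_water, 2.18, 3.23, 2.81 and 3.38 in HC_Caffeine, 2.59, 1.88, 2.18 and 2.38 in MWM_water and 2.32, 3.04, 2.07 and 1.64 in MWM_Caffeine mice. Like Gbp4 it was highest in HC_water replicate 8 and, among the HC_Caffeine mice, lowest in replicate 2. Gbp9, the neighbour that overlaps Gbp4 by 60 bases, stood at rank 22 with 0.79. Among the members the values were 0.62 for Irgm1, 0.54 for Gbp7, 0.51 for Bst2, 0.43 for Irf1, 0.40 for Gbp2, 0.36 for Gbp3, 0.11 for Ifit1 and -0.40 for Ifit3. The libraries share the difference between home cage and learning. With the group means removed the correlation with Gbp4 was 0.82 for H2-Q4, 0.76 for Loxl3, 0.67 for Zfp867 and 0.62 for Gm26660 and Gbp9, and among the members 0.50 for Irf1, 0.42 for Irgm1, 0.37 for Bst2, 0.32 for Gbp2 and Gbp7, 0.27 for Gbp3, -0.14 for Ifit1 and -0.15 for Ifit3. These values are a description without a test.

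The members were then set beside 125 other genes of the interferon pathway present in the table, of which 109 passed the count filter. The interferons themselves were hardly seen. Of 9 ligand genes listed, 3 were in the table and none passed the filter, with 0 reads for Ifnb1, 4 for Ifng and 2 for Ifna2 among 578265036 reads of 16 mice. In the shallowest library 3 reads, taken as an approximate upper limit for a count of 0 from counting error alone, make 0.130 CPM. In learning under water edgeR called none of the 109 genes, where 0.97% of all genes were called, and 16 had an unadjusted p under 0.05 where 11.8% of all genes had; 60 of 109 were below 0. DESeq2 called Jak2 higher and Parp12 lower. In learning under caffeine 5 genes were called higher by edgeR, where 3.16% of all genes were, and 4 lower, where 2.13% were; 29 had an unadjusted p under 0.05, where 18.8% of all genes had, and 75 of 109 were below 0. Caffeine against water gave no call by edgeR or DESeq2, with 7 of 109 genes at rest and 4 of 109 after learning at an unadjusted p under 0.05.

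The antigen processing and presentation genes, through which cells show peptides to T cells, were mostly lower after learning. Of 18 tested genes 17 were below 0 in each treatment, their median being -0.21 under water and -0.32 under caffeine on the log2 scale, and 7 in each had an unadjusted p under 0.05. B2m, the light chain of MHC class I, fell from 93.7 ± 9.3 to 75.0 ± 5.3 CPM with learning under caffeine (log2 fold change -0.32, SE 0.07, edgeR adjusted p = 0.0231). Psmb8, a subunit of the immunoproteasome, fell from 3.93 ± 0.37 to 2.77 ± 0.49 CPM (-0.50, SE 0.15, edgeR adjusted p = 0.0798). Under water neither was called, with log2 fold changes of -0.17 for B2m (edgeR adjusted p = 0.353) and -0.13 for Psmb8 (edgeR adjusted p = 0.761). Over all genes 51.5% were below 0 and 11.8% had an unadjusted p under 0.05 under water, and 52.9% and 18.8% under caffeine, where 2.13% were called lower. Under caffeine 6 of 10 microglia and 1 of 8 oligodendrocyte markers were called lower too, and under water 4 of 9 choroid plexus markers, and the part of these cells was not tested.

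Among the other guanylate-binding proteins and immunity-related GTPases, 9 of 15 genes passed the filter, with 6 below 0 under water and 8 under caffeine. Gbp9, the neighbour of Gbp4, had log2 fold changes of -0.37 (SE 0.17) and -0.36 (SE 0.17, edgeR adjusted p = 0.256). Gbp8, whose exons also overlap Gbp4, had 97 reads in all and was not tested. Gbp11, which shares sequence with Gbp4, had log2 fold changes of -0.03 (SE 0.32) and -0.92 (SE 0.32, edgeR adjusted p = 0.132), and DESeq2's Wald test called it lower under caffeine. The 1 gene that edgeR called was Irgq, which rose with learning under caffeine from 102 ± 8 to 116 ± 6 CPM (0.19, SE 0.06, edgeR adjusted p = 0.0848).

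Of 44 type I interferon-stimulated genes tested, 27 were below 0 with learning under water and 32 under caffeine, with medians of -0.07 in both. Ifitm3, which blocks the entry of viruses into the cell, fell with learning under caffeine from 7.11 ± 0.89 to 5.11 ± 0.75 CPM (-0.46, SE 0.14, edgeR adjusted p = 0.0806). Adar, which edits adenosine in double-stranded RNA, rose from 176 ± 12 to 209 ± 9 CPM (0.25, SE 0.05, edgeR adjusted p = 0.0213). Ifit1bl2, an Ifit1-like gene that shares sequence with Ifit1, rose from 0.455 ± 0.057 to 0.738 ± 0.117 CPM (0.70, SE 0.21, edgeR adjusted p = 0.0868), while Ifit1 itself was not called.

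Receptors and signal carriers gave 1 call in 16 tested genes, Ptpn2, a phosphatase that acts on Janus kinases and STATs, which rose with learning under caffeine from 20.0 ± 1.0 to 23.6 ± 0.7 CPM (0.24, SE 0.07, edgeR adjusted p = 0.0741). Of the 13 nucleic acid sensors and their partners, Cgas, a sensor of cytosolic DNA, rose from 1.78 ± 0.22 to 2.54 ± 0.42 CPM (0.50, SE 0.14, edgeR adjusted p = 0.0753). Tmem173, which encodes STING, the protein that relays the signal of Cgas, fell from 5.29 ± 0.43 to 4.13 ± 0.24 CPM (-0.36, SE 0.10, edgeR adjusted p = 0.0753). None of the 9 tested interferon regulatory factors and their binding proteins was called by edgeR in any comparison. DESeq2's Wald test called Irf2 higher with learning under caffeine, as did edgeR without HC_Caffeine replicate 2, where edgeR on all libraries gave 0.19 (SE 0.07, edgeR adjusted p = 0.17). The 2 most abundant, Irf2bpl and Irf2bp1, had log2 fold changes of 0.17 and -0.06 under water and 0.08 and -0.05 under caffeine. The calls of Adar and B2m held under all other settings tried and without any 1 library, and the other 7 were each lost under at least 1 of them.

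**Figure D5:**
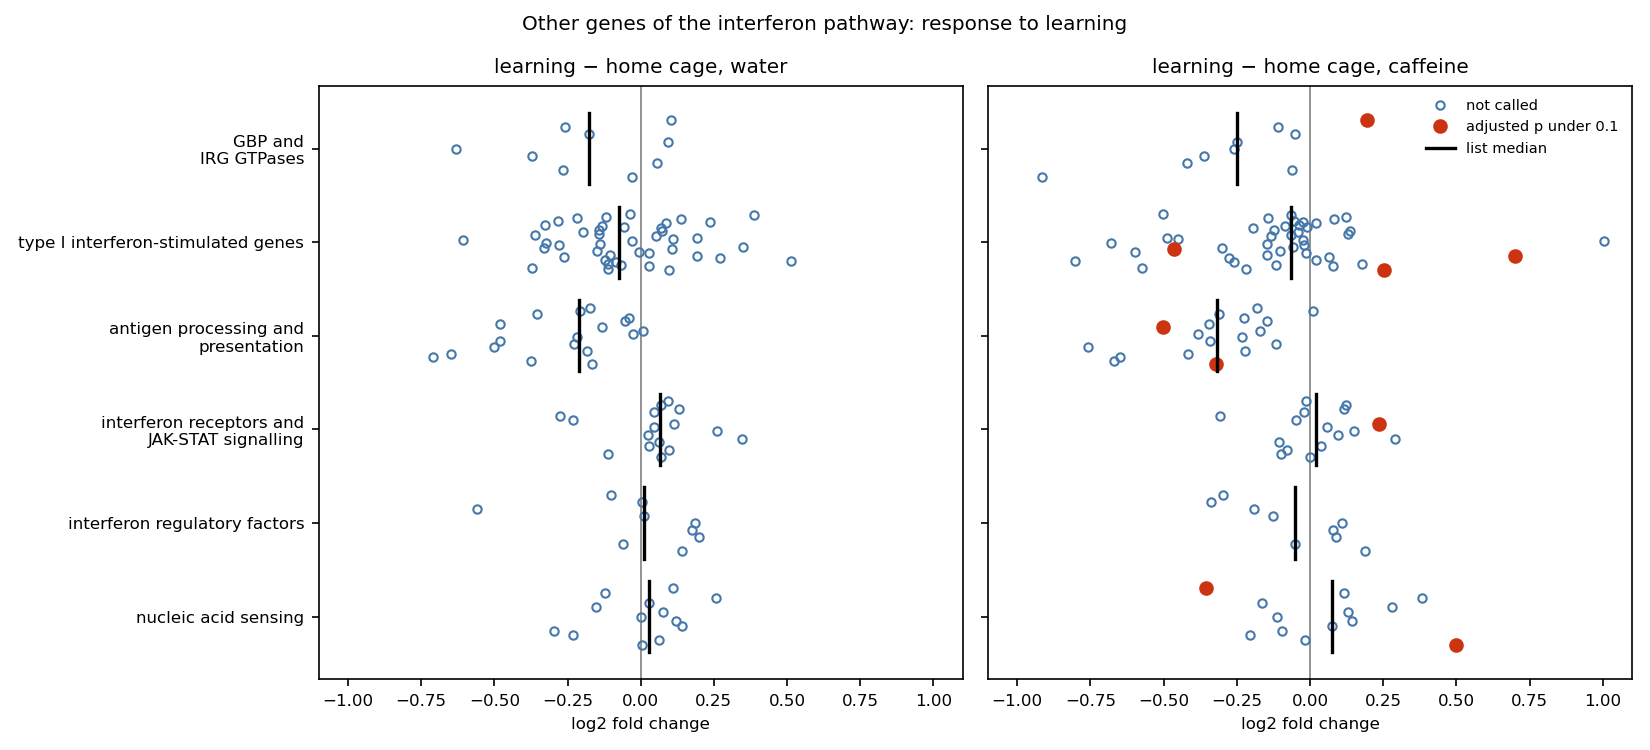
Log2 fold change with learning (horizontal axis) of the 109 other tested interferon pathway genes by list, under water (left) and under caffeine (right); open points are not called, filled points have an adjusted p under 0.1 and black bars are list medians. The 9 filled points are all under caffeine, and the antigen processing and presentation list has its median furthest below 0 under caffeine, at -0.32.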

How the data were processed

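RNA-Seq covered the dorsal hippocampus of 16 mice, grouped by sample titles into 4 groups of 4. The authors made stranded poly-A libraries, sequenced single-end 50-base reads, aligned them with STAR and Bowtie 2 (genome build mm10), discarded reads without a unique alignment and counted the rest on Ensembl genes with HTSeq 0.6.1p1 in union mode; the deposited values are raw counts without normalization. Whether counting used strand is not given in the sources used here. From these counts, edgeR 4.0.16 in R 4.3.3 was run with TMM scaling, the filterByExpr filter (17830 of 35328 genes) and 1 model with a mean per group over 16 libraries, and genes were called by the quasi-likelihood test at a Benjamini-Hochberg adjusted p under 0.1. CPM is relative to the TMM-scaled total of 23078094 to 49949281 counts. Exon lengths and positions came from GENCODE M21, in which 35247 of 35328 identifiers had a symbol, and promoters from RefSeq (GRCm38.p6). Counting error is the Poisson error of the mean count. PCR copies were not marked, so counting errors and limits cover counting only.

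The members and lists were chosen with earlier results of these data known. The rule names learning without a treatment. Learning against home cage under water was taken as its comparison, and no member has a test there. Gbp4 also has none in learning under caffeine or in the difference between the learning responses. Named genes are the members; per list and comparison all called genes, or of more than 4 the 4 of largest change; where a list had no call, its 2 most abundant tested genes; the 5 genes most like Gbp4, of which 1 is not reported here; Fos; and genes that overlap a member in exons. Jak2, Parp12, Irf2, Gbp11 and the called cell type markers were named after their values were seen. Single members were also tested by an exact two-sided permutation test. Alternatives were DESeq2 1.42.0 (Wald test, or its size factors in edgeR), the 8 libraries of each comparison alone, 2 other count filters (at least 1 count in total, or at least 10 in every library), an adjusted p under 0.05, CPM scaled otherwise, and each library left out. The tests were tested on simulated data. No 2 libraries of a group were copies: chi-square per degree of freedom over genes was 5.65 to 33.2 in 24 pairs.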

Additional observations from a re-analysis of the deposited data

Results flagged for a closer look

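In 2 of the 36 sets of 4 mice (9 genes in 4 groups), 1 mouse lay far from the other 3 by Dixon's criterion at 95%, which chance alone gives in about 1 of 20 sets. Gbp2 was at 2.18 CPM in MWM_Caffeine replicate 40, where the other 3 mice lay between 3.19 and 3.30 CPM. Gbp3 was at 3.255 CPM in HC_water replicate 6, where the other 3 lay between 4.52 and 4.69 CPM. Those libraries were also the lowest of their group in 6 and 5 of the 9 genes.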

How the results depend on the processing

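No paired analysis was possible because the replicate numbers in the labels differ between all 4 groups. With 1 library left out the log2 fold change of Gbp4 with learning was -1.14 to -0.87 under water and -0.92 to -0.57 under caffeine. The count of tested members called was 0 in every comparison, setting and leave-one-out fit.

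Of the other pathway genes in learning under water, DESeq2 called 1 higher and 1 lower and the filter of at least 1 count gave 1 higher; with a library left out there were 0 to 1 higher (Jak2, without HC_water replicate 8, HC_Caffeine replicate 2 or 17, or MWM_Caffeine replicate 22) and 0 to 1 lower (Parp12, without HC_water replicate 8 or MWM_Caffeine replicate 40). In learning under caffeine the 5 higher and 4 lower became 1 and 2 with the filter of at least 1 count, 2 and 1 on 8 libraries, and 1 and 1 at an adjusted p under 0.05. With a library left out there were 1 to 5 higher and 1 to 6 lower: the higher count was 3 without HC_Caffeine replicate 2 or MWM_water replicate 36, 2 without HC_Caffeine replicate 17 and 1 without HC_Caffeine replicate 9 or MWM_Caffeine replicate 22, 30 or 40, and the lower count was 2 without MWM_water replicate 33 or MWM_Caffeine replicate 22 or 30 and 1 without HC_Caffeine replicate 2, 9 or 17 or MWM_Caffeine replicate 40. The cause was not tested.

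No log2 fold change of a member changed sign or side of the threshold under another tool, scaling, filter or set of 8 libraries (196 values), sides being read for tested values only. With a library left out, 621 such values kept their sign and their side of the threshold and 19 changed sign. For caffeine at rest the ranges were -0.14 to 0.0080 (Gbp3), -0.28 to 0.077 (Gbp4), -0.00083 to 0.15 (Ifit1), -0.16 to 0.012 (Ifit3) and -0.0074 to 0.17 (Irf1). After learning they were -0.061 to 0.11 (Gbp7), -0.037 to 0.14 (Ifit1) and -0.29 to 0.012 (Ifit3). For learning under water they were -0.15 to 0.014 (Gbp3), -0.15 to 0.023 (Ifit1) and -0.14 to 0.020 (Irf1), and under caffeine -0.22 to 0.085 (Gbp2) and -0.15 to 0.026 (Gbp7). With 44 to 447 reads of a member per library, counting alone gave an error of 5.08% to 13.5% at the mean count of a group.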
